A study of Mus musculus with 22 samples.

Results

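Nono and Itgb1bp2 lie in tandem on the plus strand of the mouse X chromosome, and their RNA 3′ ends were followed through all groups of the series. Poly(A) sites listed on chromosome X, plus strand, between 98624000 and 98650000 (mm9) were taken. Sites up to 98644500 were counted as Nono and later ones as Itgb1bp2. Of 612268 listed sites, 32 fell in this window, 26 of them Nono and 6 Itgb1bp2, and of 59113336 reads 6025 did, 3565 of Nono and 2460 of Itgb1bp2. The pair was chosen because the downstream reads were far higher in differentiated than in proliferating C2C12 cells, so every value of that contrast is given as a description, with no test. The deposited site tables name no genes, so the names rest on the window. In the RefSeq gene table, which is for another build (GRCm38.p6), Itgb1bp2 is the first gene after Nono on the same chromosome.

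NONO is an RNA- and DNA-binding protein of the nucleus, a core part of paraspeckles (nuclear bodies built on the noncoding RNA Neat1), and it takes part in splicing, transcription and DNA repair. It works in pairs with its relatives SFPQ and PSPC1 and is made in most cell types. Itgb1bp2 encodes melusin, a protein of skeletal and heart muscle with zinc-binding CHORD domains that binds the tail of integrin beta 1 and acts as a co-chaperone of HSP90. A poly(A) site is where a nascent RNA is cut and given its tail, and polymerase runs on past it before transcription ends, so that a downstream site in tandem can be reached by RNA begun in the upstream gene as well as by RNA begun in its own.

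The sites were measured by 3′READS, in which the last bases before the tail are sequenced, so that each read marks the position of an RNA 3′ end, in 20 libraries of 10 groups with 2 libraries each. The cells were C2C12 myoblasts, NIH3T3 fibroblasts and 4T1 mammary carcinoma cells, and 2 RNA-seq libraries of 3T3-L1 preadipocytes, 1 in each group, completed the series of 22. The groups were differentiated against proliferating C2C12, siPcf11 against control C2C12 in 4sU-labelled RNA and in total (input) RNA, siPcf11 against control NIH3T3, Pcf11-IPAKO against control 4T1, and siPcf11 against control 3T3-L1. Labelling with 4sU (4-thiouridine, which cells build into RNA made during the labelling) lasted 1 h at 50 µM. All libraries carry the strain label C57BL/6, and controls are labelled untreated with no control siRNA named, so transfection and Pcf11 cannot be told apart as causes. PCF11 is a factor of cleavage, polyadenylation and termination. The labels give no time or medium for the differentiated cells, no account of how the IPAKO cells were made or whether they are 1 clone, and no word on whether replicates were grown apart. The p-values therefore refer to the spread of these libraries alone, and that spread can be technical. The 3′READS libraries held 1887532 to 4432717 reads, and the muscle identity of C2C12 and the knockdown could not be checked in them by gene name.

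The 250 bases before the Nono start (RefSeq, GRCm38.p6, plus strand, chrX:101429401-101429650) are shown because they lead up to the annotated start of the upstream gene of the pair. CCAAT boxes are in capitals.

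Nono promoter: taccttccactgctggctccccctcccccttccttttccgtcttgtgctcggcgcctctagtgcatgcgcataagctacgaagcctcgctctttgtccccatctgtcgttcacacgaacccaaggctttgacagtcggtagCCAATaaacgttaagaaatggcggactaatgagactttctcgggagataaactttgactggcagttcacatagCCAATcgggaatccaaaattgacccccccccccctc

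A search of both strands for CCAAT (or ATTGG) found 2 matches, 109 and 36 bases before the start. At least 1 match was in 33.8% of 32851 promoter windows of the same length, and at least 2 were in 10.1%. The E-box CANNTG, the letters bound by basic helix-loop-helix factors such as the muscle regulator MYOD, had 1 match (CATCTG, 151 bases before the start), and 66.2% of the windows held at least 1. TATAAA or TTTATA had 0 matches there and at least 1 in 12.4% of the windows. Itgb1bp2 had no entry in the promoter table.

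Each member had 1 main site. Nono RNA ended at 98643930, which held 3480 of its 3565 reads and was read in all 20 libraries. Itgb1bp2 RNA ended 4950 nt downstream, at 98648880, which held 2451 of its 2460 reads, in 14 libraries, and 2 more reads of 4T1 control replicate 2 were listed at 98648877. The other sites were thinly read. Of the 26 Nono sites, 15 held 1 read in all and 20 were seen in 1 library, and together the sites more than 10 nt from the main one held 85 reads of Nono and 7 of Itgb1bp2. The most read of them lay 3319 nt before the Nono main site, at 98640611 with 31 reads in 10 libraries, and 5 nt from it, at 98640606, were 18 reads of 4 libraries, 7 of Pcf11-IPAKO replicate 2, 7 and 2 of the 4T1 control replicates and 2 of NIH3T3 siPcf11 replicate 2. Other sites with at least 1% of a group's window reads held 3 reads (98644189) and 2 reads (98642333) of Pcf11-IPAKO replicate 2, 1 read of that library and 2 of 4T1 control replicate 2 (98643279), and 3 reads of NIH3T3 control replicate 1 (98643291). Among the Itgb1bp2 sites, that at 98647927 held 1 and 2 reads of the siPcf11 4sU replicates. The site nearest inside the window end was at 98649421, with 2 reads of differentiated replicate 1, and the nearest beyond it was at 98651401, with 3 reads of differentiated replicate 2 and 1 read each of control 4sU replicate 1 and control total replicate 2.

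Itgb1bp2 reads were abundant in differentiated C2C12 cells and near 0 elsewhere. Differentiated replicates had 1145 and 1286 Itgb1bp2 reads, or 295.8 and 290.1 CPM (reads scaled to the library total), against 1 and 2 reads, or 0.307 and 0.493 CPM, in proliferating replicates. The mean was 293.0 ± 4.04 CPM in differentiated and 0.400 ± 0.132 CPM in proliferating cells (SD, n = 2 each). The differentiated libraries stood far above both proliferating ones, and their spread was small beside the gap. Per library total the ratio was 714, and its counting interval ran from 244 to 3464 because proliferating cells had 3 reads in all. The background of this contrast was high, with 62.5% of the 11761 features tested past the threshold in either direction (edgeR), and nothing was read from it for the pair, which was chosen on this contrast. In the 18 libraries that were not differentiated, Itgb1bp2 had 0 to 5 reads, with a median of 1, 5 libraries at 0 and 29 reads in all. In bulk libraries, a change in the number of cells of a type and a change in RNA per cell cannot be told apart.

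**Figure D1:**
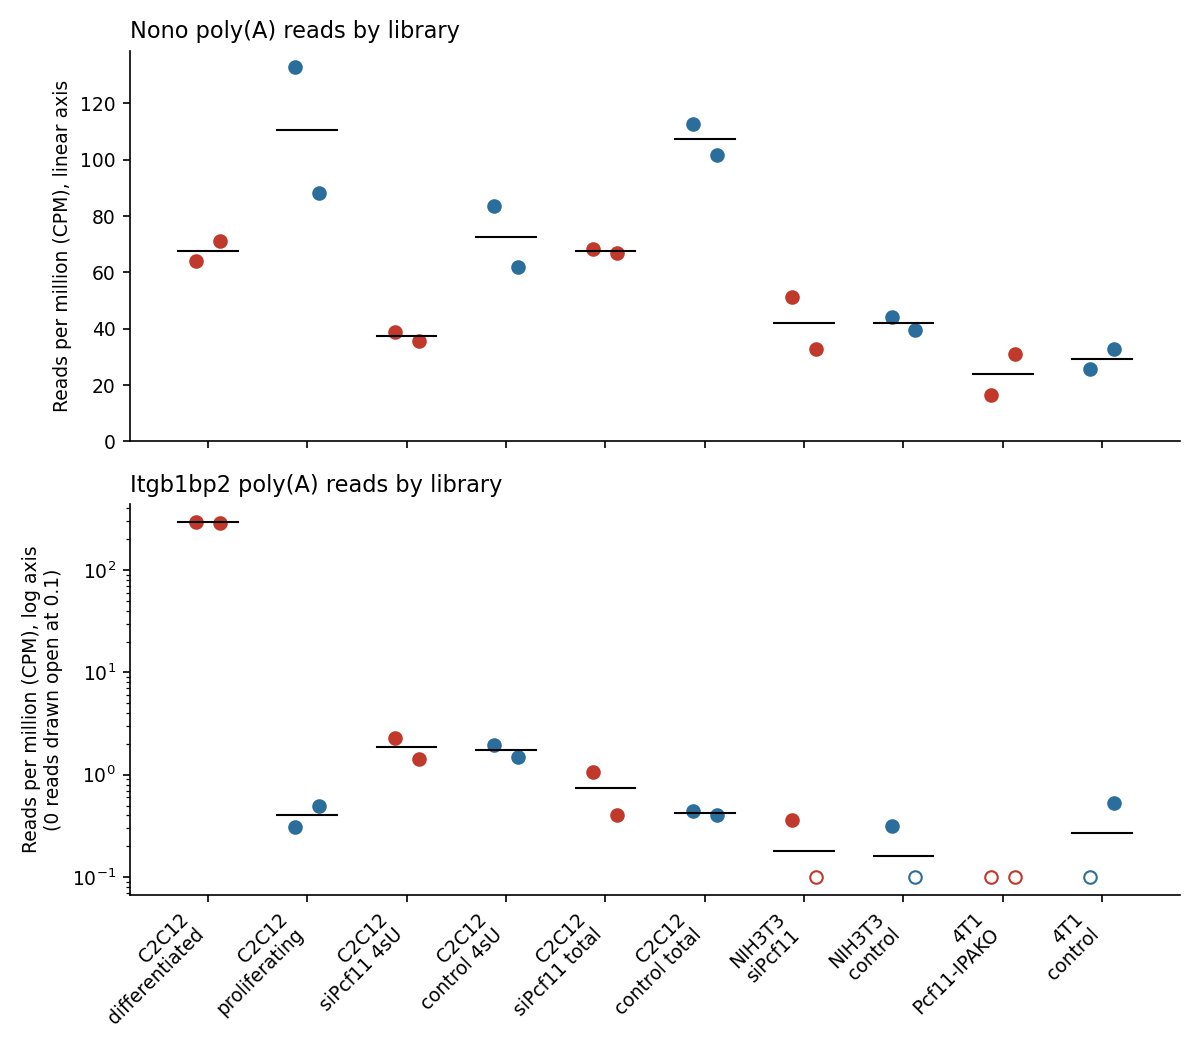
Reads scaled to the library total (CPM) of Nono (upper panel, linear axis) and Itgb1bp2 (lower panel, log axis, libraries without a read drawn open at 0.1) in each 3′READS library. Points are libraries, bars are means of 2, red marks differentiated, siPcf11 and Pcf11-IPAKO libraries and blue the proliferating and control ones. Itgb1bp2 stood at 290.1 and 295.8 CPM in differentiated cells and at most at 2.29 CPM elsewhere.

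Nono, the upstream gene, was lower in differentiated cells. It had 248 and 315 reads (64.1 and 71.1 CPM) in differentiated replicates, against 433 and 358 reads (132.8 and 88.3 CPM) in proliferating replicates. Both differentiated libraries lay below both proliferating ones, and the proliferating libraries were far apart. The means were 67.57 ± 4.94 CPM in differentiated and 110.6 ± 31.5 CPM in proliferating cells (SD, n = 2 each), a ratio of reads per library total of 0.627 (counting interval 0.562 to 0.699). That interval leaves out the spread between replicates. With 1 library left out, the difference of the means ran from -65.3 to -20.7 CPM. The neighbours moved in opposite directions, Itgb1bp2 by far the more, and the balance of the window turned. Itgb1bp2 took 82.2% (exact 95% binomial interval 80.1 to 84.2) and 80.3% (78.3 to 82.2) of window reads in differentiated replicates, against 0.230% and 0.556% in proliferating replicates.

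The downstream reads in differentiated cells exceeded what ended at the upstream site. For each Nono read there were 4.62 and 4.08 Itgb1bp2 reads in the differentiated replicates. Their mean Itgb1bp2 level was 2.65 times the mean Nono level of proliferating cells, and the lower of them was 2.18 times the highest Nono level of any library. Nono and Itgb1bp2 reads summed were 3.32 times as many per library total in differentiated as in proliferating cells (counting interval 3.07 to 3.60). These are levels of 3′ ends, counted next to the tail and therefore not scaled to RNA length. The 3′ ends do not show where an RNA began, so RNA begun at Itgb1bp2 itself and RNA run through from Nono cannot be told apart in these reads.

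Ends elsewhere in the window were sparse in the differentiated libraries. Between the main sites, leaving out 50 nt around each, differentiated cells had 1 read in each replicate and proliferating cells had 0, and of all Itgb1bp2 reads of differentiated cells 99.84% lay within 50 nt of the Itgb1bp2 main site. From there to the window end, differentiated cells had 2 reads and proliferating cells 0. In the 22 kb past the window, differentiated replicates had 12 and 7 reads on the plus strand at 8 sites, against 0 and 1 in proliferating replicates.

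**Figure D2:**
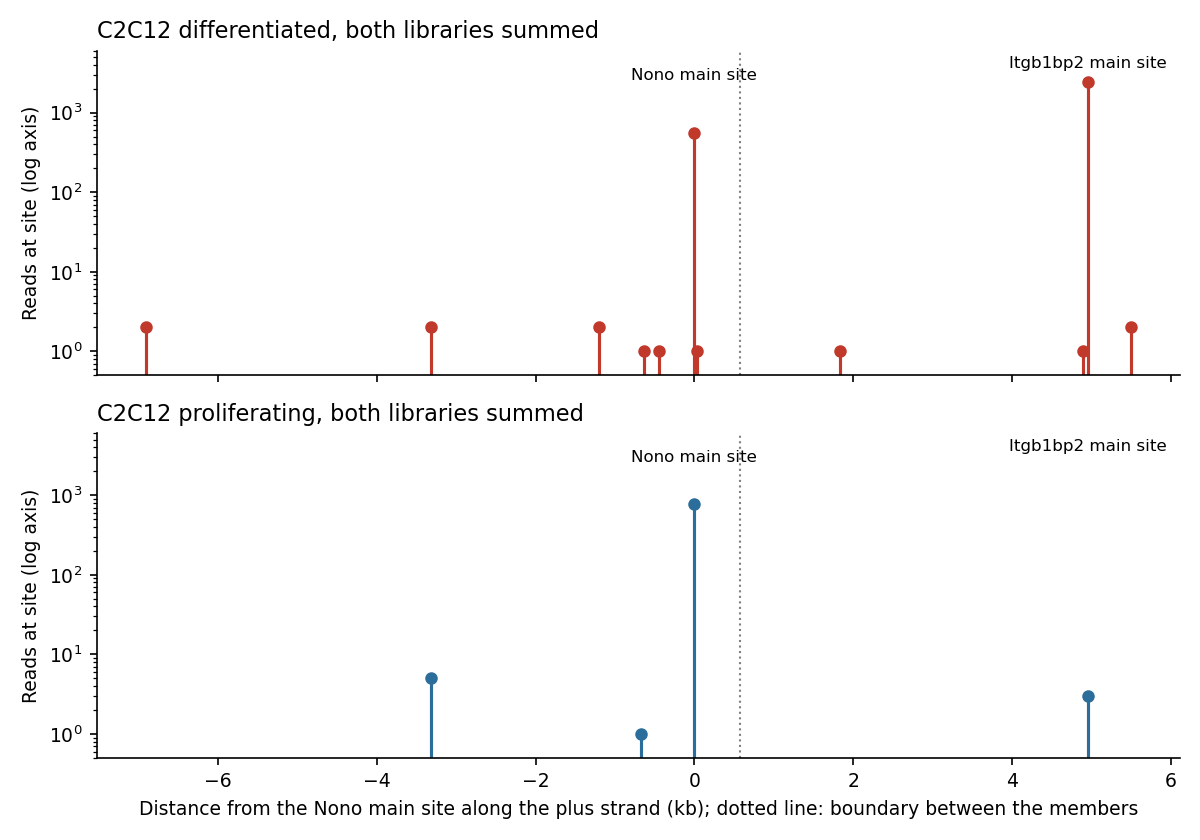
Reads at each plus-strand poly(A) site (log axis) against the distance from the Nono main site in kb, both libraries summed, for differentiated (upper) and proliferating (lower) C2C12 cells. The dotted line is the boundary between the members. The site 4950 nt downstream held the most reads in differentiated cells and 3 reads in proliferating cells, and few reads lay between the main sites.

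Nono was also lower in C2C12 cells labelled siPcf11, in both kinds of RNA. In total RNA it had 129 and 164 reads (68.3 and 66.8 CPM) in siPcf11 replicates, against 255 and 252 reads (112.6 and 101.8 CPM) in control replicates. The groups did not overlap. The log2 fold change was -0.49 (SE 0.16, edgeR quasi-likelihood test, Benjamini-Hochberg adjusted p = 0.00586 over all features), which leaves 71.0% of the control, where the median feature stood at -0.02. With library totals in place of TMM scaling it was -0.67. The TMM factors were 0.93 and 0.94 in the siPcf11 replicates, against 1.05 and 1.06 in the control replicates. In this comparison 27.5% of the 11081 features passed the test as lower, so a lower level was common among them. The call was lost in DESeq2 (adjusted p = 0.0680) and when control replicate 1 (0.0765), siPcf11 replicate 1 (0.0707) or siPcf11 replicate 2 (0.133) was left out of the edgeR fit, where adjusted p over all alternatives ranged from 0.000149 to 0.133.

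In 4sU-labelled RNA, which holds mostly newly made RNA, Nono had 85 and 75 reads (38.9 and 35.8 CPM) in siPcf11 replicates, against 214 and 164 reads (83.4 and 61.8 CPM) in control replicates. Again both siPcf11 libraries lay below both controls. The log2 fold change was -0.65 (SE 0.18, edgeR adjusted p = 0.00112), or 63.8% of the control, and 25.1% of features passed as lower. Left-out libraries ended the call in 1 case, without control replicate 1 (adjusted p = 0.121, over all alternatives 9.33e-07 to 0.121), and with library totals in place of TMM scaling the log2 fold change was -0.96. The response of Nono in 4sU RNA minus that in total RNA was -0.15 on the log2 scale (SE 0.24, edgeR adjusted p = 0.874). Of the features, 0.857% (95) passed that test of the difference, a count that was 216 with the replicate block, 22 in DESeq2 and as low as 24 with a library left out (siPcf11 4sU replicate 1).

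Newly made RNA held less Nono than total RNA under both treatments. In control cells Nono averaged 72.6 ± 15.3 CPM in the 4sU fraction and 107.2 ± 7.65 CPM in total RNA (SD, n = 2 each), a log2 fold change of -0.64 (SE 0.16, edgeR adjusted p = 0.000485), and 16.7% of features (1848) passed as lower, against 990 without control 4sU replicate 2, 1151 without control total replicate 1 and 938 in DESeq2. Without control 4sU replicate 2 the call was lost (adjusted p = 0.120, over all alternatives 9.37e-05 to 0.120). In siPcf11 cells it averaged 37.3 ± 2.20 CPM in the 4sU fraction and 67.57 ± 1.09 CPM in total RNA (SD, n = 2 each), a log2 fold change of -0.79 (SE 0.19, edgeR adjusted p = 0.000397), where 8.68% of features passed as lower. Both 4sU comparisons share libraries with the siPcf11 comparisons above. Nothing in the labels says whether the total RNA came from the 4sU-labelled cultures.

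**Figure D3:**
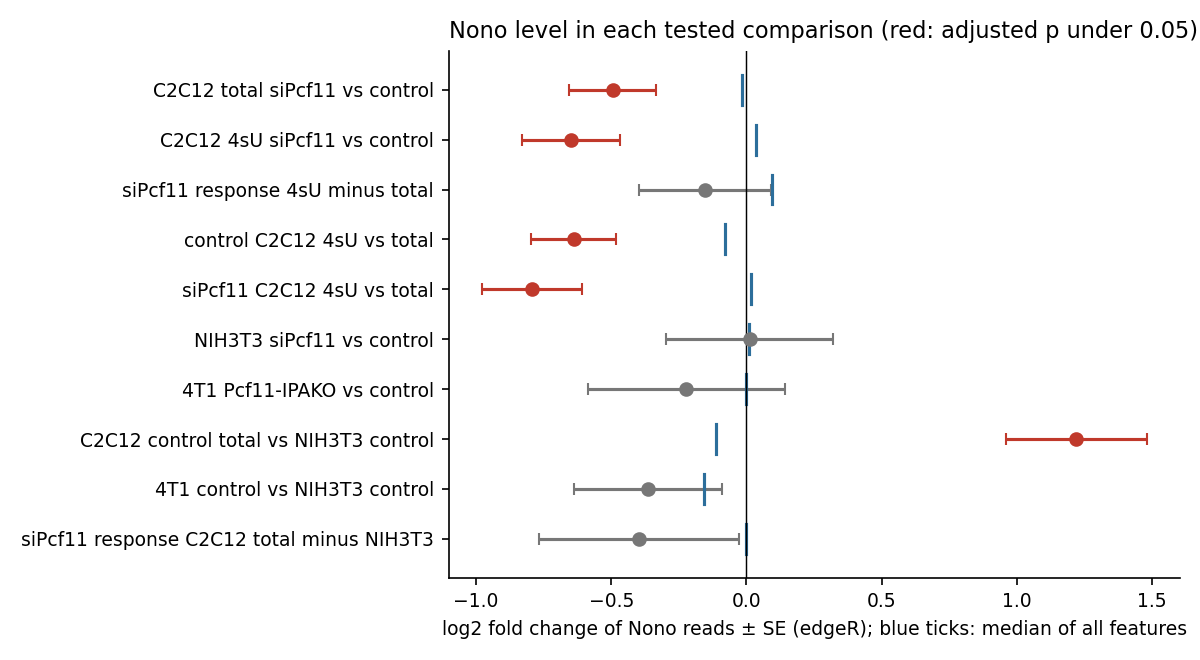
Fitted log2 fold change of Nono reads with its SE (edgeR) in each of the 10 tested comparisons, with an adjusted p under 0.05 in red and the median of all features as a blue tick. Nono was at -0.49 and -0.65 under siPcf11 in C2C12 total and 4sU RNA, at 0.01 in NIH3T3 and at -0.22 in 4T1 Pcf11-IPAKO.

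In NIH3T3, Nono did not pass the test. It had 143 and 125 reads (51.2 and 32.7 CPM) in siPcf11 replicates, against 139 and 132 reads (44.2 and 39.6 CPM) in control replicates. The siPcf11 libraries spanned both controls. The log2 fold change was 0.01 (SE 0.31, edgeR adjusted p = 0.992), and reads per library total gave a ratio of 0.967 (counting interval 0.814 to 1.15). Of the 13575 features, 0% passed in edgeR. There were 2268 with an unadjusted p under 0.05, and the DESeq2 test passed 338. Without siPcf11 replicate 1 edgeR passed 5000 features, and without siPcf11 replicate 2 it passed 1781, where only the controls give a spread. The siPcf11 response of Nono in C2C12 total RNA minus that in NIH3T3 was -0.40 on the log2 scale (SE 0.37, edgeR adjusted p = 0.685), so a difference between the lines was not shown, and 6.64% of features (1140) passed that test, or 508 to 2765 with a compared library left out.

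In 4T1 cells, Nono had 32 and 122 reads (16.6 and 31.1 CPM) in Pcf11-IPAKO replicates, against 57 and 123 reads (25.7 and 32.8 CPM) in control replicates. The groups overlapped. The log2 fold change was -0.22 (SE 0.36, edgeR adjusted p = 0.848), and 4.16% of features (437) passed in either direction, or 1590 with the replicate block, which left Nono at -0.24. With only its main site, Nono stood at -0.35 (edgeR adjusted p = 0.753). Of the Nono reads, 23 lay off the main site in Pcf11-IPAKO libraries and 11 in controls. The main site held 84.4% and 85.2% of Nono reads in Pcf11-IPAKO replicates, against 87.7% and 96.7% in control replicates. Control replicate 1 was thus close to the Pcf11-IPAKO libraries in this share, though not in the positions of the reads. All 7 of its reads off the main site were at 98640606. Pcf11-IPAKO replicate 1 had 0 of its 5 such reads there, and replicate 2 had 7 of 18. Sparsely read positions held 6.28% and 7.04% of all reads in the Pcf11-IPAKO replicates, against 2.03% and 2.66% in the control replicates, and their part in the Nono reads off the main site was not tested. In C2C12 and NIH3T3 libraries the Nono main site held at least 96.3% of Nono reads.

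Across lines and treatments, mean Nono levels ran from 23.9 ± 10.2 CPM in 4T1 Pcf11-IPAKO to 110.6 ± 31.5 CPM in proliferating C2C12 (SD, n = 2). In rising order came 4T1 Pcf11-IPAKO (23.9), 4T1 control (29.3), C2C12 siPcf11 4sU (37.3), NIH3T3 siPcf11 and NIH3T3 control (41.94 and 41.93), differentiated C2C12 (67.57), C2C12 siPcf11 total (67.57), C2C12 control 4sU (72.6), C2C12 control total (107.2) and proliferating C2C12 (110.6). Neighbours in this order overlapped between the 4T1 groups, between the NIH3T3 groups, among differentiated, siPcf11 total and control 4sU C2C12, and between control total and proliferating C2C12. The steps from the 4T1 control to siPcf11 4sU, from NIH3T3 to the higher C2C12 groups and from control 4sU to control total did not overlap, while siPcf11 4sU lay within the range of NIH3T3 siPcf11. Control C2C12 total RNA had more Nono than control NIH3T3, by 1.22 on the log2 scale (SE 0.26, edgeR adjusted p = 0.000179), where 27.5% of 17163 features passed as higher. Control 4T1 against control NIH3T3 stood at -0.36 (SE 0.27, edgeR adjusted p = 0.252), although 64.4% of features passed. Each line entered these comparisons as 1 control group, and batch and line cannot be told apart. Proliferating C2C12, another C2C12 group, had a Nono mean of 110.6 CPM against 41.93 CPM in control NIH3T3, which was not tested. In all, Nono passed the test in 5 of 10 comparisons.

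Outside differentiated cells, Itgb1bp2 was at the limit of counting. In C2C12 4sU RNA it had 5 and 3 reads (2.29 and 1.43 CPM) in siPcf11 replicates, against 5 and 4 reads (1.95 and 1.51 CPM) in control replicates. In total RNA it had 2 and 1 reads (1.06 and 0.407 CPM) in siPcf11 replicates, against 1 and 1 (0.441 and 0.404 CPM) in control replicates. All 4 libraries of 4sU RNA lay above all 4 of total RNA. Scaled to library totals, the ratio of 4sU to total RNA was 4.09 in controls (counting interval 0.846 to 38.9, 9 reads against 2) and 2.71 under siPcf11 (0.649 to 15.8, 8 reads against 3). The ratio of siPcf11 to control was 1.08 in 4sU RNA (0.364 to 3.17) and 1.64 in total RNA (0.188 to 19.6). Each of these intervals includes 1, so none of these 4 ratios showed a difference by itself. The 4 libraries of 4sU RNA were not tested against the 4 of total RNA over both treatments. Their order is therefore a description only.

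Itgb1bp2 failed the low-count filter in the C2C12 siPcf11, NIH3T3 and 4T1 fits. Without the filter its log2 fold change between 4sU and total RNA of controls was 1.80 (SE 1.22, edgeR adjusted p = 0.361), and under siPcf11 it was 1.41 (SE 1.16, edgeR adjusted p = 0.540). In the fit of all 20 libraries it passed the filter only through the differentiated libraries, so no comparison between lines was read from its fitted values. NIH3T3 siPcf11 replicates had 1 and 0 reads, against 1 and 0 in NIH3T3 control replicates. The 4T1 Pcf11-IPAKO replicates had 0 reads, which allows up to 0.513 CPM over the group, against 0 and 2 reads in 4T1 control replicates.

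As a share of window reads, Itgb1bp2 held 5.56% (exact 95% binomial interval 1.83 to 12.5) and 3.85% (0.800 to 10.8) in siPcf11 4sU replicates, against 2.28% (0.745 to 5.25) and 2.38% (0.652 to 5.98) in control 4sU replicates. In total RNA it held 1.53% (0.185 to 5.41) and 0.606% (0.0153 to 3.33) under siPcf11, against 0.391% and 0.395% in controls. Both siPcf11 libraries lay above both controls in each kind of RNA, while the intervals of all of them overlapped, and these shares also move with Nono, which was lower under siPcf11. Of the 8 Itgb1bp2 reads in siPcf11 4sU RNA, 3 were at 98647927, before the main site, in both replicates, and no other library had a read there. With the main sites alone, the share was 4.55% and 1.35% in siPcf11 4sU replicates, against 2.34% and 2.47% in control 4sU replicates, so the order of the groups was not kept.

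**Figure D4:**
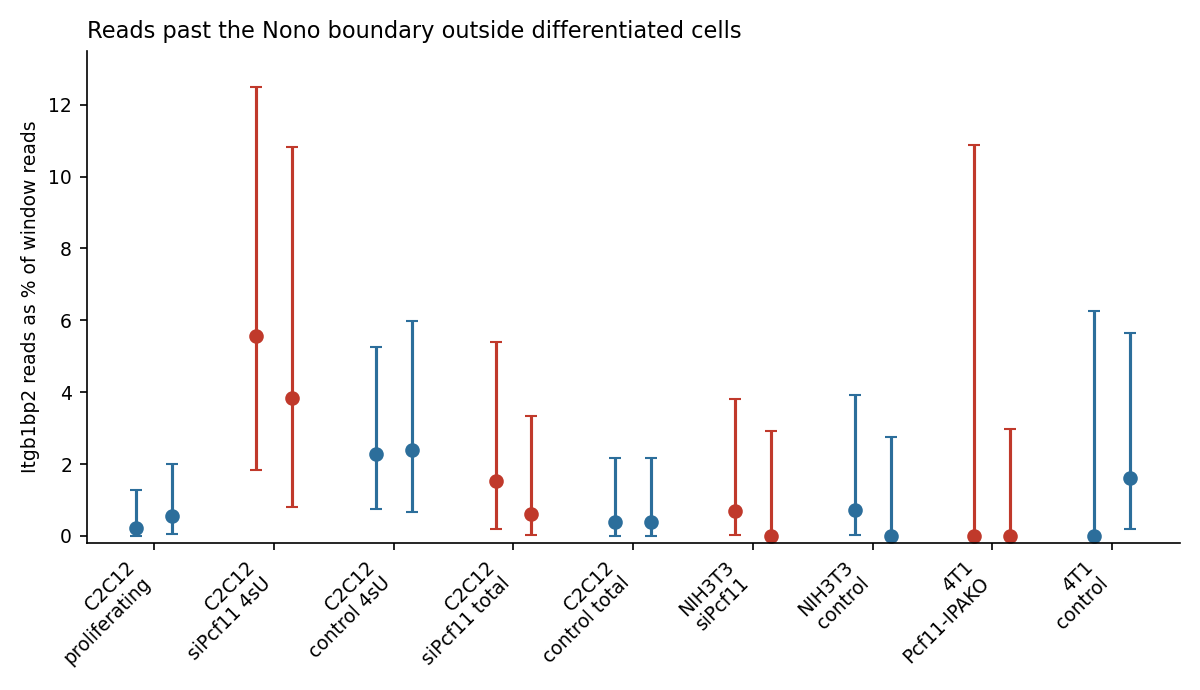
Itgb1bp2 reads as a percentage of window reads in each library outside differentiated cells, with exact 95% binomial intervals of counting error. Red marks siPcf11 and Pcf11-IPAKO libraries and blue proliferating and control ones. The siPcf11 4sU libraries, at 5.56% and 3.85%, have intervals that overlap those of the control 4sU libraries.

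Each site of the window was tested for a change in use against the other sites of its 5 kb site group. Its p was adjusted over all sites tested in the comparison. With the low-count filter no site of the window could be tested in any comparison of siPcf11, 4sU or Pcf11-IPAKO libraries. Without it, 0 of 3 window sites passed in the 5 C2C12 comparisons and 0 of 2 in 4T1 (edgeR diffSpliceDGE). The 4T1 sites were both of Nono, and NIH3T3 had no window site to test. In C2C12 the main sites of the pair, 4950 nt apart, fell in 1 group under the 5 kb gap. Site use there therefore also moves with the levels of the 2 genes. Of the 15 C2C12 site tests 4 had an unadjusted p under 0.05, and of the 2 in 4T1 none did. The share of all sites under that unadjusted threshold was not computed. The C2C12 tests also reuse the same 3 sites and 8 libraries, so nothing was read from this count. The share of all sites called, at an edgeR adjusted p under 0.05, was 5.13% for siPcf11 in total RNA and 3.95% for siPcf11 in 4sU RNA. For the difference of these responses it was 0.00692%. It was 0.709% for 4sU against total RNA in controls, 0.63% for the same under siPcf11 and 0.192% for 4T1 Pcf11-IPAKO. The upstream Nono site at 98640611 had 0 reads in both siPcf11 4sU replicates, against 5 and 5 in control 4sU replicates (unadjusted p = 0.0206, edgeR adjusted p = 0.233). That site also had an unadjusted p under 0.05 for the difference of the responses and for 4sU against total RNA under siPcf11 (edgeR adjusted p = 1.000 and 0.702). The Itgb1bp2 main site had an unadjusted p of 0.0338 for 4sU against total RNA of controls (edgeR adjusted p = 0.564).

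In RNA-seq of 3T3-L1 cells, which counts reads over whole genes, Nono was among the more abundant genes and Itgb1bp2 was not listed. Nono had 2578 reads in the library labelled siPcf11 and 3083 in the control, or 368.7 and 359.6 CPM, and 445 and 466 genes had more reads. Its log2 ratio was 0.04 (counting interval -0.04 to 0.11). With 1 library a group the ratio has no replicate check and its interval compares libraries, not conditions. No listed gene had under 5 reads, but Malat1 and Neat1, nuclear RNAs of most cells, were not listed either, so a symbol that is not listed gives no upper limit for its RNA. The target gene of the label, Pcf11, was no lower there, with 840 reads in the library labelled siPcf11 and 939 in the control (log2 ratio 0.13), so the target gene does not bear out the label. All 8 preadipocyte or fibroblast markers had at least 100 reads, as did 2 of 5 adipocyte markers and 1 of 7 skeletal muscle markers (Acta1). The muscle markers Tnnt3 (6 reads in the library labelled siPcf11 and 8 in the control) and Des (15 and 19) were listed with fewer. Myod1, Myog, Myh3 and Ckm of muscle and Adipoq, Plin1 and Cidec of adipocytes were not listed. Among epithelial markers, Krt8 had 11 reads in the control and was not listed in the other library, and Epcam and Cdh1 were not listed.

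Partners of both proteins lay close to 0 in the same libraries. Of 9143 genes with at least 100 reads, 5.86% were at least 1.5-fold apart in either direction and 45.2% had a log2 ratio above 0, with a median of -0.03. Of 19 paraspeckle genes, Nono among them, 17 had at least 100 reads. Of these, 5 were above 0, 0 were 1.5-fold apart and the median was -0.09. Sfpq, the partner of NONO, had 3173 reads in the library labelled siPcf11 and 4496 in the control (log2 ratio -0.21), and Pspc1, the other relative, had 418 and 547 (-0.09). Cpsf6, a 3′ end processing factor also found in paraspeckles, stood at -0.29 and Rbmx, an RNA-binding protein encoded on the X chromosome, at 0.40. Neat1 and Malat1 had no ratio.

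Of 19 genes of the CHORD and integrin adhesion list, 17 had at least 100 reads. Of these, 9 were above 0, 0 were 1.5-fold apart and the median was 0.06. The list also held Itgb1bp2 itself, which was not listed, and Itga7, with only 31 and 30 reads (log2 ratio 0.34). Itgb1, whose protein melusin binds, had 7681 reads in the library labelled siPcf11 and 7812 in the control (log2 ratio 0.27), and Itga5, a partner subunit of integrin beta 1, stood at 0.33. Chordc1, the widely made relative of melusin, had 340 and 454 reads (-0.12), and its HSP90 partner Hsp90ab1 stood at -0.03. Of the 6 genes around the pair on the X chromosome, 4 were counted, with Taf1, a subunit of the transcription factor TFIID, at 0.05, the mediator subunit Med12 at -0.22, the glycosyltransferase Ogt at -0.23 and Zmym3 at -0.42.

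**Figure D5:**
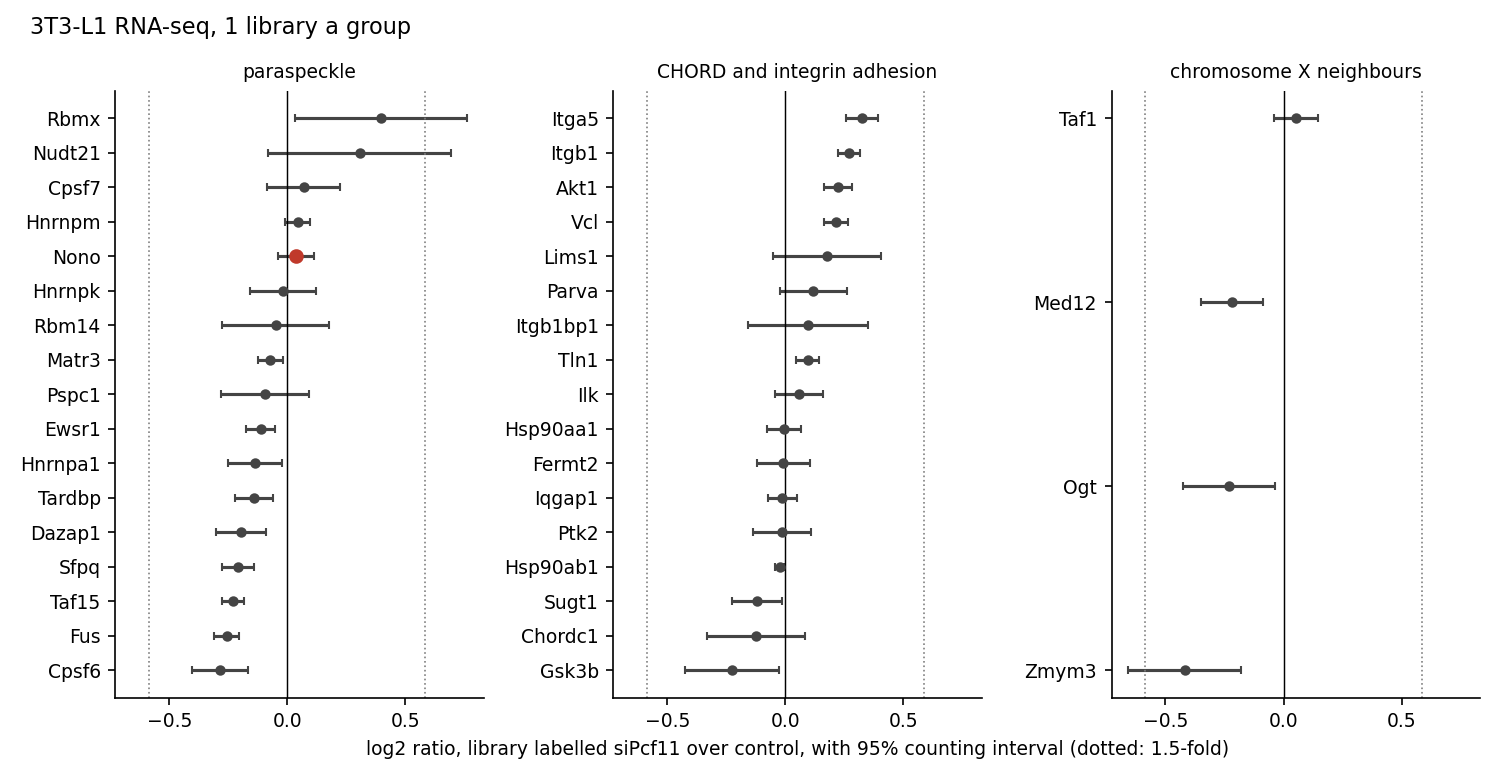
Log2 ratio of the library labelled siPcf11 over the control in 3T3-L1 RNA-seq, with 95% counting intervals, for the counted genes of the paraspeckle, CHORD and integrin adhesion, and X chromosome neighbour lists. Dotted lines mark 1.5-fold, Nono is in red at 0.04, and no gene of the 3 lists passed 1.5-fold.

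Over the 10 group means, the Pearson correlation of Nono and Itgb1bp2 levels, as log2 of CPM plus 1, was 0.21. It is a description only, as the means include the differentiated group on which the pair was chosen. Itgb1bp2 reached the minimum of 10 CPM for this comparison only through that group. Among 12350 features, the site groups most like Nono lay on chromosome 6, plus strand, at 42308394 to 42312960 (r = 0.98) and on chromosome 3, minus strand, at 32233714 to 32239616 (r = 0.97). Next came chromosome 4, minus strand, at 129353599 (r = 0.97), chromosome 17, plus strand, at 73288915 to 73291282 (r = 0.96) and chromosome 2, plus strand, at 25141124 to 25141436 (r = 0.95). Those most like Itgb1bp2 were the site at 68171987 on chromosome 17, plus strand, with 56.4 CPM in differentiated and 0.123 CPM in proliferating cells, and the group at 4456171 to 4456261 on chromosome 7, minus strand, with 399 CPM in differentiated and 0.123 CPM in proliferating cells (r = 0.99 each). The next were on chromosome 5, minus strand, at 113117896, on chromosome 17, minus strand, at 48558556 to 48558613 and on chromosome 19, minus strand, at 24757784 to 24758675 (r = 0.99 each). These features share libraries and depth with the pair, positions are mm9, and Itgb1bp2 was high in only 1 of the 10 groups. The features most like Itgb1bp2 therefore mainly restate the contrast on which the pair was chosen.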

How the data were processed

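The authors deposited 3′READS tables of a chromosome, strand, poly(A) site position and read count, and RNA-seq tables of a gene symbol and read count. All are raw counts. Per the submitters' processing notes the build is mm9 and cutadapt, Bowtie2 and STAR were used, with roles and versions not given in the sources used here. Groups came from sample titles and labels. Members, gene lists and tests were chosen with earlier results of these data known, with a rule that named Nono, Itgb1bp2, their relatives Sfpq, Pspc1 and Chordc1, genes of the lists past 1.5-fold, sites with at least 1% of window reads in a group and the 5 features most like each member. Cpsf6, Rbmx, Itgb1, Itga5, Hsp90ab1 and the X chromosome neighbours were named after their values were seen.

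Sites with at least 1 CPM in at least 2 libraries of a line were chained over gaps up to 5 kb into features, with the window replaced by its members. Each member summed all of its listed sites, without that minimum. For levels, the quasi-likelihood test of edgeR 4.0.16 (R 4.3.3, limma 3.58.1) was used, with TMM factors and a filterByExpr minimum of 10 counts. Its p was adjusted over all features and judged at 0.05. The 8 C2C12 siRNA libraries shared a fit, and comparisons between lines used all 20. Site use was tested with diffSpliceDGE. An SE is the log2 fold change over the square root of F. DESeq2 1.42.0 and the alternatives of the closing section were compared. Tests were tried on simulated data with larger changes than those of Nono and the same spread for all features. That trial does not show how they perform on changes of the size reported here. Intervals and floors (3 counts) cover counting error only, as PCR reads are not independent molecules. Replicates differed beyond counting noise in every group (chi-square per degree of freedom 2.03 to 16.2). With 2 against 2 libraries an exact permutation test cannot go below 0.333. Python 3.11.15, pandas 2.3.3, numpy 2.4.6, scipy 1.17.1 and matplotlib 3.10.9 were also used.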

Additional observations from a re-analysis of the deposited data

Results flagged for a closer look

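In the 22 kb of the plus strand past the window, outside the sites of either member, differentiated C2C12 libraries held 19 reads at 8 sites. Differentiated replicates had 12 and 7 of them, against 0 and 1 in proliferating replicates. Of the other groups, control 4sU and control total C2C12 had 1 read each and the rest none. What these reads belong to was not tested.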

How the results depend on the processing

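Nono kept its direction under every alternative in C2C12 siPcf11 total and 4sU RNA, 4sU against total RNA, C2C12 or 4T1 against NIH3T3, and the difference of the C2C12 and NIH3T3 responses. With library totals siPcf11 gave -0.67 in total RNA and -0.96 in 4sU RNA, and in DESeq2 it gave -0.45 in total RNA (past no threshold). With 1 library left out it gave -0.57 to -0.37 in total RNA and -0.85 to -0.41 in 4sU RNA. Control 4sU against total RNA then gave -0.88 to -0.43. Nono turned direction in NIH3T3 with library totals (-0.0105), no filter (-0.00624), the replicate block (-0.0167) and left-out libraries (-0.38 to 0.32), and with left-out libraries in 4T1 Pcf11-IPAKO (-0.65 to 0.0466) and in the 4sU minus total response (-0.39 to 0.0831). Nothing is read from the fitted values of Itgb1bp2 between lines, as it passed the filter only through the differentiated libraries. With libraries left out they ran from -2.17 to 3.23 (4T1 against NIH3T3 controls) and from -1.22 to 3.10 (response of C2C12 minus NIH3T3). These are log2 values, and the causes were not tested.

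With only its strongest site, Itgb1bp2 in siPcf11 4sU RNA stood -0.574 CPM from control (0.132 with all sites) and 0.420 CPM from total RNA (1.13 with all sites), and its share differed by 0.546 and 1.85 percentage points (2.37 and 3.63), as 3 of 8 reads lay elsewhere. Between differentiated and proliferating cells, Itgb1bp2 differed by 306.9 CPM after TMM scaling (292.6 without). A boundary 1 kb earlier puts the Nono main site with Itgb1bp2 and gave 249.5 CPM for Itgb1bp2, 0.475 points for its share and 0.0913 CPM for Nono.

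Same-numbered replicates deviated together in 4T1 only (r = 0.437, elsewhere -0.005 to 0.093), no label pairs them, and the replicate block changed no call on Nono. It moved site-use calls in 4T1 to 132 (42 without it). Itgb1bp2 had 0 to 5 reads a library outside differentiated cells, which limits what its comparisons can detect, and 3′ ends alone do not place the start of an RNA. Gaps of 2 kb left no window site to test for site use, and with the low-count filter Itgb1bp2 had no fit in the C2C12 siPcf11, NIH3T3 and 4T1 comparisons.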
